A study of Mus musculus with 10 samples.

Results

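Metallothioneins and zinc transporters set how much zinc a cell takes up, holds and gives away. The genes described here are 8: the metallothioneins Mt1 and Mt2, the importer genes Slc39a4 and Slc39a5, and the exporter and vesicle transporter genes Slc30a1, Slc30a2, Slc30a4 and Slc30a10. They were chosen by name, and each gene is represented by the probe set with the highest mean over all 10 arrays among those that the platform annotation gives to 1 gene symbol only. Of the 8, 6 have such a probe set, 1 each, among 22180 genes tested. Slc30a1 and Slc30a10 each have 2 probe sets, all of which are shared in the annotation with a long noncoding RNA gene, 1700034H15Rik for Slc30a1 and Gm2061 for Slc30a10, so no value is given for them.

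The arrays hold RNA from a 3 cm piece of mouse jejunum, the middle of the small intestine. The 5 knockout arrays are from Pcyt1aLoxP/LoxP;VilCreERT2 mice, in which a Cre recombinase driven by the villin promoter of intestinal epithelium becomes active after tamoxifen, and the 5 control arrays are from Pcyt1aLoxP/LoxP mice without Cre. Pcyt1a encodes the enzyme of the rate-limiting step of phosphatidylcholine synthesis. All mice were females of 10 to 12 weeks, had tamoxifen for 5 days and a high-fat diet for 3 days, were fasted overnight and then ate the same diet for 2 hours. Cre was present in the knockout group alone, so Cre activity and loss of Pcyt1a cannot be told apart, and the piece of gut also holds cells in which villin is silent.

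Metallothioneins are small cysteine-rich proteins that bind zinc and copper in the cytosol, and their genes are switched on by zinc through the transcription factor MTF-1, which binds short metal response elements. Slc39 proteins (also called ZIP) carry zinc into the cytosol, and most Slc30 proteins (also called ZnT) carry it out, across the cell membrane or into vesicles. Members of both families can differ in the metal they carry. In the small intestine the protein of Slc39a4 takes zinc from the lumen, and in humans its loss causes the zinc deficiency disease acrodermatitis enteropathica. In mice the protein of Slc39a5 lies on the blood side of the enterocyte, and zinc deprivation is known to lower metallothionein and to raise Slc39a4.

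The start regions of Mt1 and Mt2 are shown because these neighbouring genes on chromosome 8 are the known targets of metal response elements and, as described further on, their transcripts varied together. The sequences are RefSeq's, build GRCm38.p6, from 250 bases before to 50 bases after the start listed there, both on the plus strand, at chr8:94178839-94179138 for Mt1 and chr8:94172368-94172667 for Mt2. Capitals mark matches to the 7-base core of the element, TGCACNC or TGCGCNC, on either strand.
Mt1: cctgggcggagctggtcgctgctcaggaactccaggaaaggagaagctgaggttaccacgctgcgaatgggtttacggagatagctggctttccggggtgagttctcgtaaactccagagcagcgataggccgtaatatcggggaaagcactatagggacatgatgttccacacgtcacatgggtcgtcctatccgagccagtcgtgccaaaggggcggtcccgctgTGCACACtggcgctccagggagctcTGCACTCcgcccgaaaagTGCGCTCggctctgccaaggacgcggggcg
Mt2: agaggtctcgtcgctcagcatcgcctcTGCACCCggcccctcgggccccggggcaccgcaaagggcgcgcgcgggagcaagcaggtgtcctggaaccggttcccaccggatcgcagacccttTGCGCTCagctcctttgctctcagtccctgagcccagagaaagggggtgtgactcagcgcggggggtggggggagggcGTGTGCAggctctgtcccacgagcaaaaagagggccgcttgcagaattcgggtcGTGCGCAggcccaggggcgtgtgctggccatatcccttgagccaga
Mt1 had 3 matches, all on the plus strand, and Mt2 had 4, of which 2 were on each strand, and none of these overlapped another. Among 32851 mouse start regions of the same length, 25.7% held at least 1 match, 1.97% at least 3 and 0.517% at least 4. Of the 8 genes, 7 have a region in the table, and Slc39a4 has no entry. Slc30a4 had 3 matches, Slc30a10 had 3 of which 2 overlapped, Slc30a1 and Slc30a2 had 2 each (7.11% of all regions hold at least 2), and the 2 listed starts of Slc39a5 had 1 and 0. A match of letters is a description of the sequence and not a measured binding site. The printed bases of Mt1 and Mt2 do not hold the letters TATAAA. Bases outside these windows were not searched, so neither that absence nor the match counts describe the whole promoters. Whether the listed starts are those used in this tissue was not tested, so positions are relative to the listed start only.

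The targeted gene was checked first. Pcyt1a had a log2 intensity of 7.51 ± 0.16 in knockout and 9.22 ± 0.20 in control (SD, n = 5 each), with ranges of 7.24 to 7.66 in knockout and 8.95 to 9.51 in control. The difference was -1.71 (SE 0.11, limma adjusted p = 6.51e-05; exact permutation p = 0.00794, two-sided, the smallest value that reassigning the arrays can give). Array medians ran from 45.8 to 48.1 on the linear scale, and correlations between arrays across genes were 0.972 to 0.993.

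No metallothionein or zinc transporter passed the test. With adjusted p under 0.05 from limma, a linear model across all genes, 0 of the 6 measured members were called, and over all 22180 genes the share called was 0.343%. At an unadjusted p under 0.05 the count was 2 of 6, Slc39a4 and Slc39a5, and over all genes that share was 12.1%. Knockout and control arrays overlapped for each of the 6, while 2.77% of all genes did not overlap. The members' median difference was 0.14 on the log2 scale, and 5 of 6 had higher and 1 lower values in knockout; over all genes the median was -3.54e-04.

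Mt1 and Mt2 had similar means in the 2 groups, with a wide spread between arrays. Log2 intensity of Mt1 was 10.49, 10.57, 10.87, 10.43 and 9.66 in knockouts 1 to 5, and 10.76, 10.36, 10.48, 10.39 and 10.24 in controls 1 to 5. Knockout 5 was the lowest and knockout 3 the highest of all 10 arrays, and the other knockouts lay inside the control range. The means were 10.40 ± 0.45 in knockout and 10.45 ± 0.19 in control (SD, n = 5 each), so knockout minus control was -0.04 with an SE of 0.19 (limma adjusted p = 0.958). Its 95% confidence interval of -0.45 to 0.37 runs from 0.73-fold to 1.29-fold. The sign of this difference was not settled, since it was 0.14 without knockout 5 and 0.03 without control 1.

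Mt2 had log2 intensities of 10.82, 10.96, 11.14, 10.90 and 9.31 in knockouts 1 to 5, and of 11.10, 10.23, 11.11, 10.31 and 9.70 in controls 1 to 5. Knockouts 1 to 4 formed a narrow band, knockout 5 stood far below them, and the controls were spread over most of the same range. The means were 10.63 ± 0.75 in knockout and 10.49 ± 0.61 in control (SD, n = 5 each), with a difference of 0.14 (SE 0.35, 95% confidence interval -0.63 to 0.91, adjusted p = 0.922). On the linear scale the interval reaches from 0.646-fold to 1.87-fold. The spread within groups was 0.68 on the log2 scale, and 0.735% of all tested genes had a larger one; for Mt1 it was 0.35, with 9.12% of genes above it. Without knockout 5 the Mt2 difference was 0.47 (adjusted p = 0.458), without control 1 or control 3 it was 0.29, and without control 5 it was -0.06. Without knockout 1, 2, 3 or 4 it was 0.09, 0.05, 0.01 and 0.07, and without control 2 or 4 it was 0.07 and 0.09. With the mean of a list of ileum genes as a covariate it was 0.49 (SE 0.53, adjusted p = 0.955). The labels do not say outright that each array is a separate animal, so these spreads may be technical in part.

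**Figure D1:**
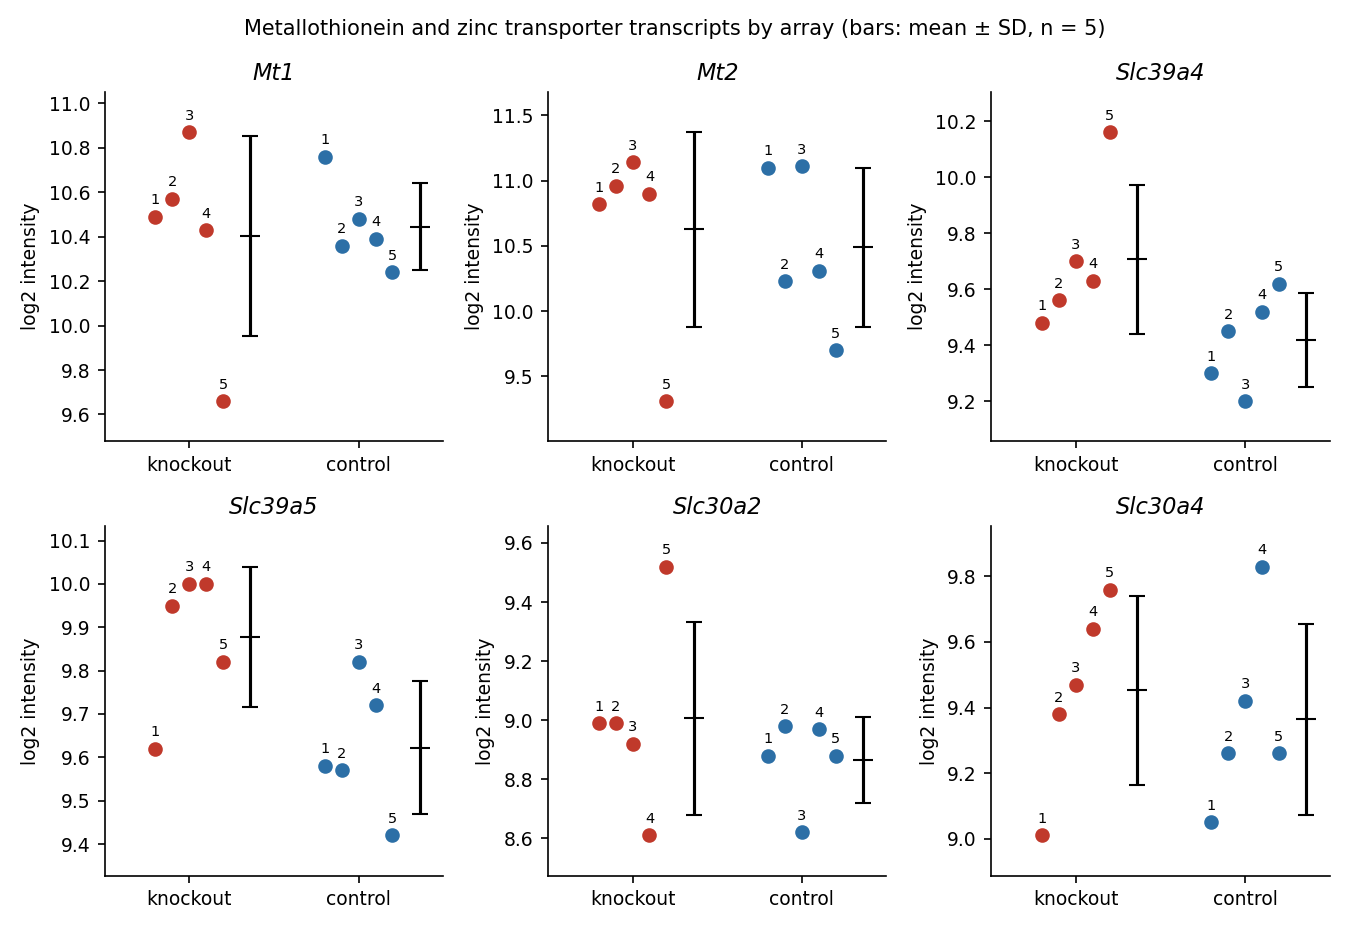
Log2 intensity of the 6 measured metallothionein and zinc transporter genes in each array (vertical axes), with knockout arrays in red and control arrays in blue, numbered 1 to 5; bars give mean ± SD (n = 5). Knockout 5 is the lowest point for Mt1 (9.66) and Mt2 (9.31) and the highest for Slc39a4 (10.16) and Slc30a2 (9.52), and the groups overlap in all 6 panels.

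The importer genes had the largest differences among the members. Slc39a4, the importer of the luminal membrane, was at 9.48, 9.56, 9.70, 9.63 and 10.16 in knockouts 1 to 5, and at 9.30, 9.45, 9.20, 9.52 and 9.62 in controls 1 to 5. Every knockout lay above the control median and 3 of 5 lay above all controls. The means were 9.71 ± 0.26 in knockout and 9.42 ± 0.17 in control (SD, n = 5 each), a difference of 0.29 (SE 0.13, 95% confidence interval 0.01 to 0.57), or 1.22-fold. It did not pass over all genes (adjusted p = 0.402), and an exact permutation test of the arrays gave a two-sided p of 0.0556. The value was 0.18 without knockout 5.

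Slc39a5, the importer on the blood side, was at 9.62, 9.95, 10.00, 10.00 and 9.82 in knockouts 1 to 5, and at 9.58, 9.57, 9.82, 9.72 and 9.42 in controls 1 to 5. Knockouts 2, 3 and 4 were above every control, knockout 5 was level with control 3, and knockout 1 was near the controls. The means were 9.88 ± 0.16 in knockout and 9.63 ± 0.15 in control (SD, n = 5 each), a difference of 0.25 (SE 0.10, 95% confidence interval 0.03 to 0.48), or 1.19-fold. The adjusted p was 0.355, and the exact permutation test gave 0.0397 (two-sided).

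Both importer genes were set beside a list of 5 measured genes of the ileum, the last section of the small intestine. Over the 10 arrays, r with the mean of these genes was 0.671 for Slc39a4 and 0.748 for Slc39a5. The mean of that list, taken as the distance from each gene's mean over the 10 arrays, was -1.07 in knockout 1 and 0.74 to 1.6 in the other knockouts, against -0.99 to -0.27 in controls, and knockout 1 was also the lowest knockout for Slc39a4 and Slc39a5. With the list mean as a covariate the difference was 0.10 (SE 0.19, adjusted p = 0.967) for Slc39a4 and 0.09 (SE 0.15, adjusted p = 0.967) for Slc39a5. The list mean itself was higher in 4 of 5 knockouts than in every control, so the fit separates this covariate from the group poorly. Among knockouts 2 to 5, knockout 5, at 1.58 in the list mean, had the highest Slc39a4 (10.16) and the lowest Slc39a5 (9.82). Control 2 had the highest list mean of the controls (-0.27), with 9.45 in Slc39a4 and 9.57 in Slc39a5. The part of sampling position in these differences was not tested.

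Slc30a2 and Slc30a4 encode transporters that load zinc into vesicles. In mice Slc30a2 is known for zinc in the granules of Paneth cells, the antimicrobial cells at the crypt base, and Slc30a4 is the gene mutated in the lethal milk mouse, whose milk lacks zinc. Slc30a2 was at 8.99, 8.99, 8.92, 8.61 and 9.52 in knockouts 1 to 5, and at 8.88, 8.98, 8.62, 8.97 and 8.88 in controls 1 to 5. Knockout 5 was the highest and knockout 4 the lowest of all arrays. The means were 9.01 ± 0.33 in knockout and 8.86 ± 0.15 in control (SD, n = 5 each), with a difference of 0.14 (SE 0.15, 95% confidence interval -0.17 to 0.46, adjusted p = 0.764). Without knockout 5 the difference was 0.01, without knockout 4 it was 0.24 and without control 3 it was 0.08. With the ileum covariate it was 0.04. As a description, over the 10 arrays Slc30a2 had r = -0.284 with the mean of 8 Paneth cell genes. With the mean of 12 mature enterocyte genes r was 0.678.

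Slc30a4 had log2 intensities of 9.01, 9.38, 9.47, 9.64 and 9.76 in knockouts 1 to 5, and of 9.05, 9.26, 9.42, 9.83 and 9.26 in controls 1 to 5. Knockout 1 was the lowest array and control 4 the highest. The means were 9.45 ± 0.29 in knockout and 9.37 ± 0.29 in control (SD, n = 5 each), with a difference of 0.09 (SE 0.16, 95% confidence interval -0.26 to 0.44, adjusted p = 0.887). Control 4 also had the highest mean of 6 smooth muscle genes, 1.34, against -0.43 to 0.21 in knockouts and -0.49 to -0.08 in the other controls, and without it the difference in Slc30a4 was 0.20. Without knockout 1 it was 0.20 as well, without knockout 4 it was 0.04, without control 1 or knockout 5 it was 0.01, and without control 2 or 5 it was 0.06. With the ileum list mean as a covariate it was -0.22.

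**Figure D2:**
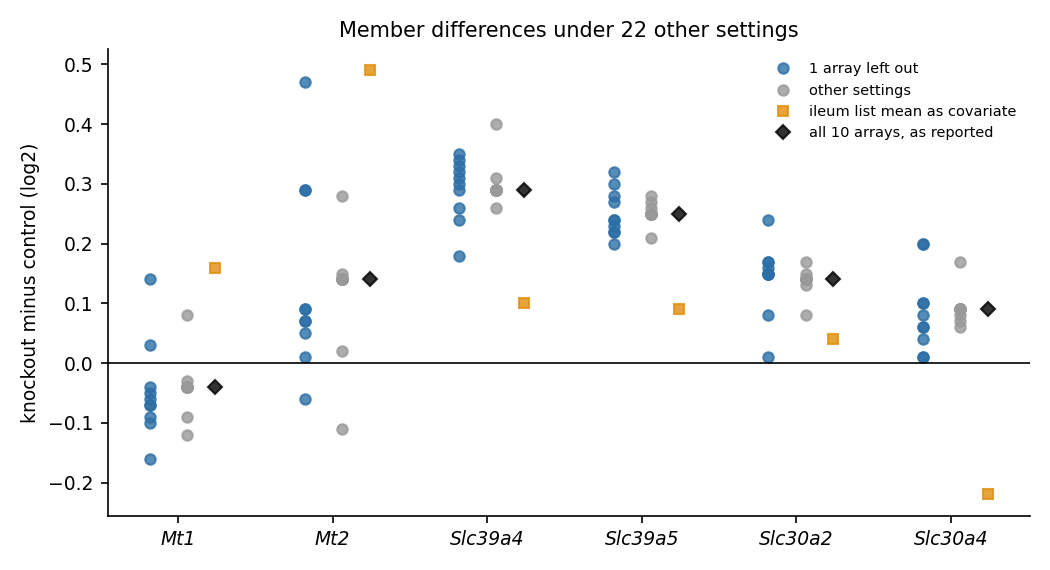
Difference between knockout and control in log2 intensity (vertical axis) for each measured member, under all 10 arrays (black diamonds), with 1 array left out (blue), with the ileum list mean as a covariate (orange squares) and under the other settings (grey). Slc39a4 and Slc39a5 stay above 0 throughout, at 0.10 to 0.40 and 0.09 to 0.32, and Mt1, Mt2 and Slc30a4 have points on both sides of 0. Several of the grey settings cannot change the difference.

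Across arrays, Mt1 and Mt2 varied together. Over the 10 arrays their Pearson r was 0.891 and Spearman's rho 0.903, and among 10356 other genes with a mean log2 intensity of at least 6, Mt2 had the highest r with Mt1. With each group's mean removed r was 0.907, and without the 2 arrays farthest from the Mt1 median, knockouts 3 and 5, it was 0.824. Other genes came close, since over the 10 arrays Sun2 had r = 0.885 with Mt1. Seen from Mt2, the genes Usp31, Spred1 and Cul4a had a higher r (0.957, 0.953 and 0.952) than Mt1 had. Mt1 and Mt2 are close relatives, and whether their probes tell them apart was not tested.

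Mt2 and Slc39a4 were at opposite ends in several arrays. Knockout 5 had the lowest Mt2 (9.31) and the highest Slc39a4 (10.16) of all arrays, and among controls, control 5 had the lowest Mt2 (9.70) and the highest Slc39a4 (9.62), while control 3 had the highest Mt2 (11.11) and the lowest Slc39a4 (9.20). Knockouts 1 to 4 did not follow this order, since knockout 3 had the highest of both among them (11.14 for Mt2 and 9.70 for Slc39a4). Over the 10 arrays r was -0.667 and rho -0.297, and with each group's mean removed r was -0.914. Without the 2 arrays farthest from the Mt2 median, knockout 5 and control 5, the values were -0.0876 and, with group means removed, -0.641. The r over all arrays without removal of group means therefore rests on those 2 arrays. The -0.641 pools both groups, and its group means still included the 2 omitted arrays. It does not show a negative relation within the knockouts, since knockouts 1 to 4 did not follow that order. By group, with knockout 5 and control 5 included, r was -0.96 over the 5 controls and -0.898 over the 5 knockouts. This pair was singled out after the 15 pairs of measured members had been seen. The mean of 8 Paneth cell genes was -0.37 in knockout 5 and -2.49 in control 5, the second of these being the lowest of all arrays. Over the knockouts it was -1.08 to 0.96, and the lowest was knockout 1, where Mt2 was at 10.82. Over the 10 arrays, r of Mt2 with the Paneth list mean was 0.631. With that mean as a covariate the Mt2 difference between knockout and control was 0.02 (SE 0.29, adjusted p = 0.990). The part of Paneth cell content in the relation between Mt2 and Slc39a4 was not tested.

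**Figure D3:**
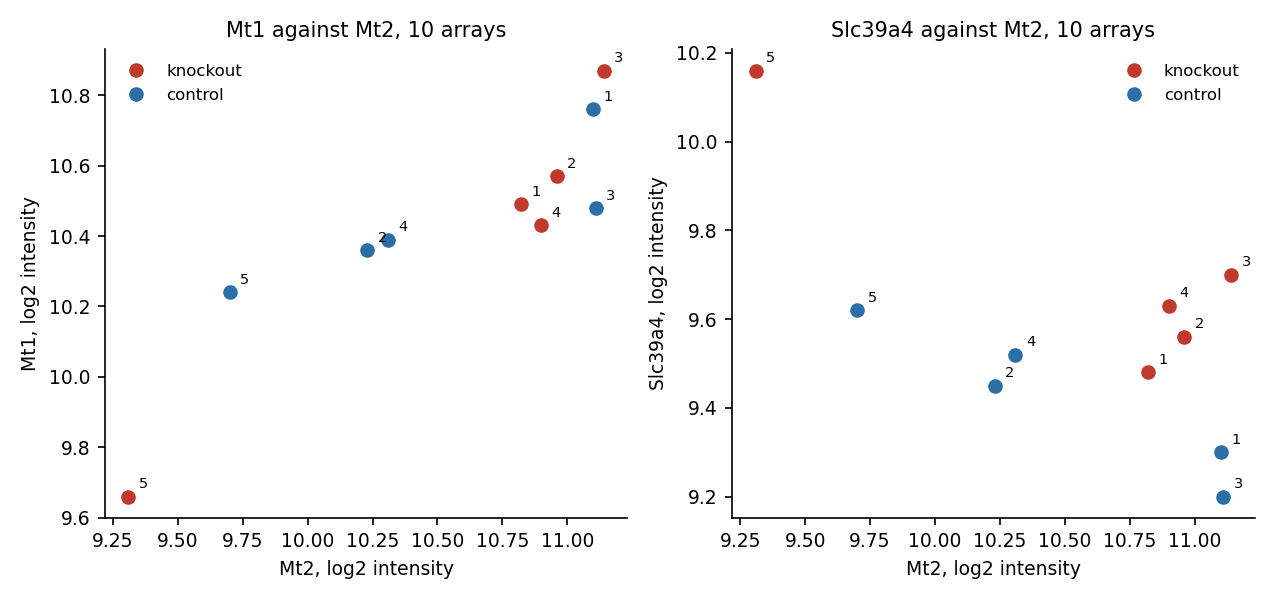
Log2 intensity of Mt1 (left) and Slc39a4 (right) against that of Mt2 in the 10 arrays, with knockouts in red and controls in blue, numbered by replicate. Mt1 is higher in arrays with more Mt2, and Slc39a4 is highest in knockout 5 (10.16), where Mt2 is lowest (9.31).

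Outside the members, the genes with the most similar profile over the 10 arrays were taken from 10351 genes with a mean log2 intensity of at least 6. They are named as a description, since with 10 arrays and so many genes a high r is found for any profile. For Mt1 they were Sun2, Immp1l and Gnl3l (r = 0.885, 0.884 and 0.870), and for Mt2 they were Usp31, Spred1 and Cul4a (0.957, 0.953 and 0.952). Slc39a4 was most like Sema4a, Cgn and Atg9a (0.953, 0.946 and 0.942), and Slc39a5 was most like Cep162, the circadian clock gene Arntl and the gap junction gene Gjb1 (0.961, 0.958 and 0.949). For Slc30a2 the nearest were Spats2l, Grina and Litaf (0.959, 0.946 and 0.945), and for Slc30a4 they were Cers6, Fam20b and the receptor gene Erbb2 (0.962, 0.948 and 0.930).

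The rest of the zinc transporter and metallothionein families was also without a call. Of 12 other Slc39 genes, 0 passed, 5 had higher and 7 lower values in knockout, and the median difference was -0.00743. Slc39a1, an importer of the cell membrane, was at 9.08 ± 0.15 in knockout and 8.83 ± 0.14 in control (SD, n = 5 each), a difference of 0.25 (SE 0.10, adjusted p = 0.331). Slc39a9, a transporter of the Golgi, was at 10.66 ± 0.20 in knockout and 10.93 ± 0.19 in control, a difference of -0.26 (SE 0.12, adjusted p = 0.403). Slc39a11 and Slc39a10 differed by 0.21 (SE 0.10, adjusted p = 0.443) and 0.32 (SE 0.18, adjusted p = 0.536). With the ileum covariate these differences were 0.10 for Slc39a1, -0.12 for Slc39a9, 0.13 for Slc39a11 and 0.10 for Slc39a10.

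Of 6 other Slc30 genes, 0 passed, 1 had a higher and 5 a lower value in knockout, and the median was -0.0776. The members with the smallest p were Slc30a9 at -0.17 (SE 0.09, adjusted p = 0.472), Slc30a6 at -0.16 (SE 0.15), the brain vesicle transporter gene Slc30a3 at -0.10 (SE 0.10) and Slc30a5, whose protein pairs with that of Slc30a6 in the secretory pathway, at -0.06 (SE 0.09). With the ileum covariate the values were -0.18 for Slc30a9, 0.17 for Slc30a6, -0.22 for Slc30a3 and 0.13 for Slc30a5. Mt3, known from brain, and Mt4, known from stratified epithelium, had mean log2 intensities of 5.08 ± 0.08 and 4.37 ± 0.21 in knockout and 5.12 ± 0.18 and 4.25 ± 0.39 in control (SD, n = 5 each), and their differences were -0.04 (adjusted p = 0.905) and 0.12 (adjusted p = 0.840). Over all 26 measured genes of these families, members included, 0 passed, 4 had an unadjusted p under 0.05, and differences ran from -0.26 to 0.32. Over all genes tested, 0.343% passed and 12.1% had an unadjusted p under 0.05.

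**Figure D4:**
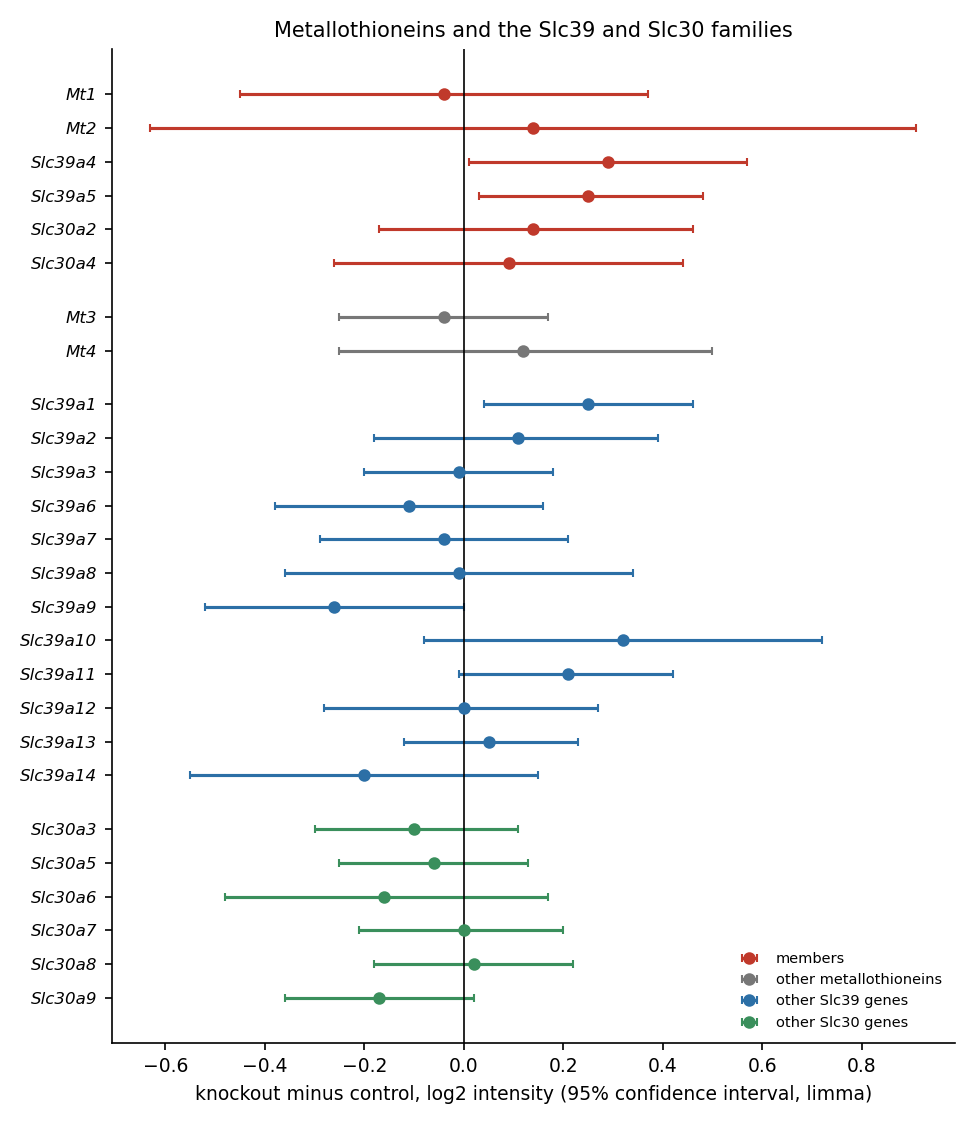
Difference between knockout and control in log2 intensity (horizontal axis) with its 95% confidence interval from limma for the 6 measured members (red), 2 other metallothioneins (grey), 12 other Slc39 genes (blue) and 6 other Slc30 genes (green). The intervals lie within -0.63 and 0.91, both ends belonging to Mt2.

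The genes around metal handling gave 0 calls too. In the list of MTF-1 and its targets outside the members, 0 of 6 passed, differences ran from -0.48 to 0.32 and the median was -0.0261. The list mixes Mtf1 itself with targets and does not separate them by direction of response, so its median does not measure MTF-1 activity. Mtf1 itself was at 8.52 ± 0.24 in knockout and 8.27 ± 0.14 in control (SD, n = 5 each), a difference of 0.25 (SE 0.12, adjusted p = 0.421). Gclc, the catalytic subunit of the enzyme for the first step of glutathione synthesis, differed by -0.48 (SE 0.12, adjusted p = 0.120), and 4 of 5 knockouts lay below all controls. Slc40a1, the iron exporter, was at -0.28 (SE 0.24, adjusted p = 0.709); it was at -0.65 (adjusted p = 0.0382) without knockout 1 and control 5, an omission chosen after seeing the data, and at 0.38 with the ileum covariate. In the copper list 0 of 9 measured genes passed and the median was 0.00681, with Sco1, an assembly factor of cytochrome c oxidase, at 0.37 (SE 0.10, adjusted p = 0.143), the copper pump gene Atp7a at 0.30 (SE 0.13), the copper chaperone Atox1 at 0.15 (SE 0.08) and Ccs, which loads copper into superoxide dismutase, at -0.16 (SE 0.10). With the ileum covariate the differences were 0.08 for Mtf1, 0.16 for Sco1 (adjusted p = 0.942), 0.03 for Atp7a and -0.08 for Ccs. Atox1 stayed at 0.15 with it, and Gclc, at -0.67 (SE 0.17, adjusted p = 0.577), had a larger difference than without it. For Sco1 all knockouts, 8.78 to 9.18, lay above all controls, 8.40 to 8.75.

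Glucocorticoids also induce metallothioneins, and most genes listed as responding to them had lower values in knockout than in control (8 of 9). Of the 9, 1 fell, 0 rose and 8 did not pass, the median was -0.37, and the list mean was -0.57 to 0.03 in knockout arrays and 0.13 to 0.31 in control arrays, without overlap. Per1, also a clock gene, fell by 0.68 (SE 0.11, adjusted p = 0.0289), and its call ended when any 1 array other than knockout 1 was left out (adjusted p = 0.0530 to 0.0708), over all probe sets (0.0724) and with the ileum covariate (0.603). Its difference was -0.72 to -0.59 with 1 array left out and -0.59 with the ileum covariate. Pdk4, a kinase that restrains glucose oxidation, was at -1.55 (SE 0.42, adjusted p = 0.146); without knockout 1 it was at -1.94 (adjusted p = 0.0116), and with the ileum covariate at -0.26 (adjusted p = 0.963). Sgk1 was at -0.37 (SE 0.18), and at -0.34 with the ileum covariate. Dusp1 was at -0.58 (SE 0.30), and at -0.03 with the ileum covariate. Of the other listed genes, Zbtb16 was at -0.54 (SE 0.30), Klf9 at -0.20 (SE 0.10) and Tsc22d3 at -0.19 (SE 0.12). Fkbp5 was at -0.10 (SE 0.12) and Nr3c1 at 0.03 (SE 0.13). In each of these, knockout and control arrays overlapped (adjusted p = 0.474 to 0.965). The list mean therefore rests unevenly on its genes, and glucocorticoid signalling was not tested. Over the 10 arrays, as a description, the list mean had r = -0.148 with Mt1, -0.315 with Mt2 and -0.779 with Slc39a5. For Slc39a5 the values with other lists were of like size, at -0.795 for the proximal intestine, 0.748 for the ileum and 0.719 for Paneth cells.

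**Figure D5:**
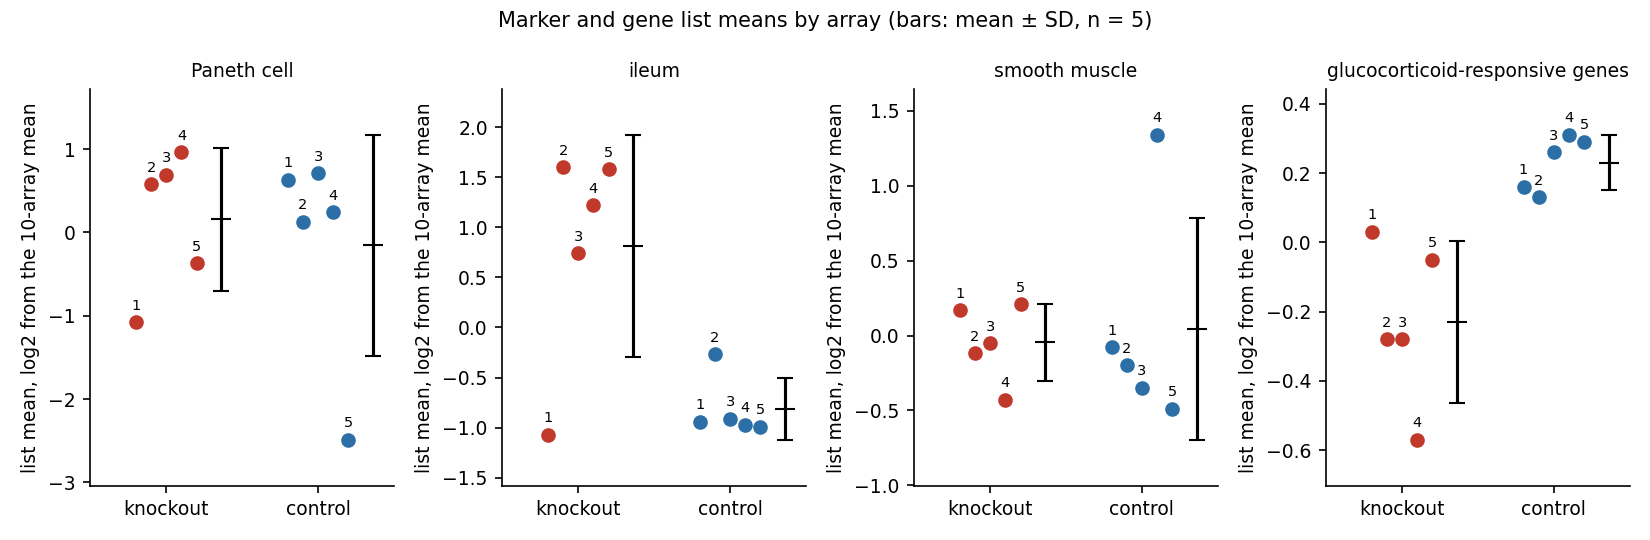
Mean of the Paneth cell, ileum, smooth muscle and glucocorticoid-responsive lists in each array (vertical axes, log2 distance from each gene's mean over the 10 arrays), with knockouts in red, controls in blue and bars for mean ± SD (n = 5). Control 5 is lowest for Paneth genes (-2.49), knockout 1 is lowest for ileum genes (-1.07), control 4 is highest for smooth muscle genes (1.34), and all glucocorticoid-responsive means are lower in knockouts.

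The tissue label was checked against markers. All 6 epithelial genes had mean log2 intensities between 7.73 and 13.08 and all 12 mature enterocyte genes between 10.27 and 13.76, while 8 pancreatic acinar genes, a tissue rich in Slc39a5, Slc30a2 and metallothionein, lay between 3.11 and 6.12. Called genes were 0 in the epithelial, enterocyte, Paneth, pancreatic, ileum and smooth muscle lists, 1 of 11 in the list of the proximal intestine (S100g, which fell by 1.79, adjusted p = 0.0469) and 1 of 6 in the leukocyte list (Siglecf, which fell by 0.50, adjusted p = 0.0363). Both calls ended when any 1 array other than knockout 1 was left out (adjusted p = 0.0520 to 0.151 for S100g and 0.0586 to 0.104 for Siglecf), with differences of -2.0 to -1.52 for S100g and -0.53 to -0.45 for Siglecf. Both also ended with the ileum covariate (-1.10, adjusted p = 0.784 for S100g and -0.39, adjusted p = 0.711 for Siglecf) and over all probe sets (0.105 and 0.0871), and that of S100g with the robust fit with trend (0.0606). List means ran from -0.17 to 0.13 in knockout and -0.14 to 0.02 in control for epithelium, from -0.22 to 0.12 in knockout and -0.14 to 0.13 in control for enterocytes, from -0.06 to 0.13 in knockout and -0.21 to 0.14 in control for pancreas, from -0.26 to 0.07 in knockout and -0.40 to 0.42 in control for leukocytes, and from -0.52 to 0.40 in knockout and 0.00 to 0.58 in control for the proximal intestine. Of the ileum list, all 5 measured genes had higher values in knockout, with a median difference of 1.16, and 4 had an unadjusted p under 0.05 (12.1% over all genes). The highest was Fabp6, the ileal bile acid binding protein, at 3.89 (SE 0.97, adjusted p = 0.120), and the means of this list are given above with Slc39a4 and Slc39a5. In bulk tissue, fewer cells of a type and less RNA per cell cannot be told apart.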

How the data were processed

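RNA from 10 jejunum samples was measured on Affymetrix arrays from 400 ng of total RNA each, per the labels' protocols. Per the submitters' processing notes, the authors used Affymetrix Expression Console 1.4.1.46 and RMA, further settings being not given in the sources used here. What was deposited is a linear intensity per probe set (1.8 to 15278.7), already brought to a shared distribution, so a shift of most transcripts would not be visible. Here log2 was taken. Samples were grouped by title, and 0 columns were unmapped. Of 41345 probe sets, 23521 had 1 symbol, 1814 several and 16010 none; only the first kind was used, which gave 22180 genes (21994 found by Entrez identifier in RefSeq's gene table).

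Groups were compared with limma 3.58.1 (R 4.3.3; lmFit, eBayes, group as the only term), Benjamini-Hochberg over all genes and a threshold of 0.05. The number of arrays limits the precision. The members and gene lists were chosen with earlier results of these data known. All members were named, with Pcyt1a, up to 4 genes with the smallest p of each pathway list and the 3 genes most like each member by r. The glucocorticoid list is given in full. S100g and Siglecf were added after their calls were seen, and marker lists are given otherwise by their means. A total of 22 alternatives were run: 2 scalings, omission of the dimmest 30% of genes, array weights, probe set means, a robust fit with trend, the replicate number as a block, 2 covariates, each array left out, all probe sets, a threshold of 0.1 and, added after seeing the data, omission of knockout 1 with control 5.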

Additional observations from a re-analysis of the deposited data

Results flagged for a closer look

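An array was marked where its gap to the nearest array of its group exceeded 0.71 of the group's range (Dixon's 95% critical value for 5 samples). In 92 groups of values looked at there were 10 such arrays, and chance marks about 1 in 20 groups. Knockout 5 was low in Mt2, at 9.31, and in the mean over all 26 zinc transporter and metallothionein genes, at -0.07. Control 3 was low in Slc30a2, at 8.62. Control 5 was low in Slc40a1, at 5.75, and high in Pdk4, at 10.09, and in Siglecf, at 7.0, and its mean of Paneth cell genes was low, at -2.49. Control 2 stood above the other controls in the ileum list, at -0.27, control 4 was high in the smooth muscle list, at 1.34, and knockout 1 was low in the epithelial list, at -0.17.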

How the results depend on the processing

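With 1 array left out, 0 members were called each time, as under the other 12 alternatives, while the count of called genes, 76 with all arrays, ran from 11 to 268. That count was 142 with array weights, 159 with the Paneth list mean and 1 with the ileum list mean as a covariate, 39 over all probe sets, 186 without knockout 1 and control 5 together and 261 at a threshold of 0.1. The replicate block gave 27 called genes; with it, Per1 (adjusted p = 0.0773), S100g (0.0773) and Siglecf (0.107) did not pass, and the numbers were not taken as pairs, since same-numbered arrays had correlations of deviations from -0.135 to 0.125 and no array correlated best with its own number. Slc39a4, Slc39a5 and Slc30a2 kept a higher value in knockout under all 22 alternatives, and Slc39a4 had adjusted p from 0.265 to 0.967. Several alternatives cannot change a member's difference, only its p. These are the threshold of 0.1, the omission of dim genes, the robust fit with trend and the replicate block. The probe set settings cannot either, as each measured member has 1 probe set. Signs turned for Mt1 with array weights (0.08) and the ileum covariate (0.16), for Mt2 without knockout 1 and control 5 (-0.11), and with the ileum covariate for Slc30a4 (-0.22), Slc30a6 (0.17), Slc30a5 (0.13) and Slc40a1 (0.38). Mt4 turned with array weights (-0.00353) and without knockout 1 and control 5 (-0.01). With 1 array left out, Mt1 ran from -0.16 to 0.14 and Mt2 from -0.06 to 0.47, and Pcyt1a from -1.78 to -1.64. The causes were not tested. Dim genes such as Mt4 are limited by signal over background, which the files do not give.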
